A study of Mus musculus with 12 samples.

Results

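Glucose and lactate are taken back from the filtrate by the proximal tubule, and 7 transporter genes of these routes are described here in mouse renal cortex after ischemia-reperfusion injury. The genes are Slc5a1, Slc5a2, Slc5a8, Slc5a12, Slc2a1, Slc2a2 and Slc16a1. They were chosen by name, and their transcripts (13 in all) were summed per gene from a table of 25790 transcripts, which gave 7 of 13465 genes. All 7 were present and all 7 passed the filter on low values (at least 1 FPKM, a read level scaled to transcript length and library size, in 3 of the 12 libraries).

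Sodium-glucose cotransporters use the sodium gradient to carry glucose across the brush border. SGLT2 (Slc5a2) does most of this work in the early proximal tubule and SGLT1 (Slc5a1) clears the remainder in the late, straight segment (S3). Glucose leaves the cell across the basolateral membrane through facilitative carriers, GLUT2 (Slc2a2) in the early segments and GLUT1 (Slc2a1), which many other cell types also use. Lactate enters from the filtrate with sodium through SMCT2 (Slc5a12, low affinity) and SMCT1 (Slc5a8, high affinity, found mainly in S3), and MCT1 (Slc16a1) moves lactate and pyruvate together with protons.

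RNA was sequenced from renal cortex in 4 groups with 3 libraries each. Wild-type (WT) mice and mice with a knockout of Gpx3 limited to renal tubular epithelial cells (CKO) were compared after sham surgery and after ischemia-reperfusion injury (IRI) of both kidneys, with 30 min of ischemia and 48 h of reperfusion. The libraries are numbered as labelled: 1, 2 and 3 in both sham groups, 13, 24 and 49 in WT IRI, and 7, 15 and 29 in CKO IRI. The promoter that drove the deletion, the deleted exons, the strain, the sex and the age of the mice are not given in the sources used here. The labels also do not say whether each library came from a separate mouse, so each p-value is set against a spread between libraries that may be technical. The labels call the tissue kidney while the extraction text describes joint capsule. Of 5 joint tissue markers 1 (Comp) was in the table, with at most 1.63 FPKM in any library, whereas the 10 proximal tubule markers together reached 1590 to 6429 FPKM per library.

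The targeted gene, Gpx3, encodes a secreted glutathione peroxidase made by the proximal tubule. Its level was 5664, 4476 and 5371 FPKM in the WT sham libraries and 2501, 3037 and 3299 FPKM in the CKO sham libraries, with no overlap (log2 difference -0.81, SE 0.15, limma adjusted p = 0.232). After IRI it was 2788, 3568 and 1075 FPKM in libraries labelled WT and 3723, 3025 and 2779 FPKM in libraries labelled CKO, so that the genotypes overlapped (log2 difference 0.52, adjusted p = 0.631). The genotypes named below are those of the labels. Library sums ran from 391002 to 422328 FPKM, which says nothing of the number of reads, and the depth is unknown. The spread between libraries was unequal: the median SD of a gene on the log2 scale was 0.0985 (WT) and 0.168 (CKO) after sham surgery, and 0.274 (WT) and 0.227 (CKO) after injury. CKO sham 1 stood nearest of the sham libraries to the IRI libraries on the first principal component (-25.7, against -38.6 to -35.0 in the other sham libraries), and WT IRI 49 lay nearest of the WT IRI libraries to sham (25.2, against 57.2 and 72.5). The CKO IRI libraries 7, 15 and 29 were at 18.3, 2.3 and 36.3, so CKO IRI 15 and 7 lay nearer to sham than any WT IRI library. CKO IRI 15 also had the lowest sum of 8 tubular injury markers of the IRI libraries (2520 FPKM, against 4174 to 6655 in the others and 1021 to 1210 in sham).

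All 7 genes lie on the plus strand (GRCm38, GENCODE M21). Slc5a1 spans chr5:33104219-33162870, Slc5a2 chr7:128265657-128272430, Slc5a8 chr10:88885992-88929515 and Slc5a12 chr2:110597298-110647779. Slc2a1 spans chr4:119108711-119137983, Slc2a2 chr3:28697903-28731359 and Slc16a1 chr3:104638668-104658462. Slc5a2 overlaps BC017158 on the opposite strand, which reached at most 6.49 FPKM. The library kit marks strand, but no source used here says whether strand was used in counting.

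Promoters were found in the RefSeq table (GRCm38.p6) for 5 of the 7 genes: Slc5a1, Slc5a8, Slc2a1, Slc2a2 and Slc16a1. The table has no entry for Slc5a2 or Slc5a12. The 250 bases before the start of 4 of them are printed 5′ to 3′, for Slc5a1 and Slc5a8 because their levels ran in parallel across the libraries, for Slc2a2 because it did not follow them, and for Slc16a1 because it rose after IRI. Capitals mark each match to a motif named below them.
Slc5a1 (chr5:33103969-33104218, plus strand): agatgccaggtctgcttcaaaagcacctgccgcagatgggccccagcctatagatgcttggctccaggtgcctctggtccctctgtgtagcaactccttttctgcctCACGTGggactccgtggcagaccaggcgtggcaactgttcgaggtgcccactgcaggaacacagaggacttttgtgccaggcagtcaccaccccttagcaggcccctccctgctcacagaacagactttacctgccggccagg
Slc5a8 (chr10:88885742-88885991, plus strand): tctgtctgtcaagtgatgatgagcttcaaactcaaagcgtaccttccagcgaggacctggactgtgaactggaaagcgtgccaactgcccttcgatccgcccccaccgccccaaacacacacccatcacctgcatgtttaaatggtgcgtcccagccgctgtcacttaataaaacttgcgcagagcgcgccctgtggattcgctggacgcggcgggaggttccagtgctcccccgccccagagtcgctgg
Slc2a2 (chr3:28697653-28697902, plus strand): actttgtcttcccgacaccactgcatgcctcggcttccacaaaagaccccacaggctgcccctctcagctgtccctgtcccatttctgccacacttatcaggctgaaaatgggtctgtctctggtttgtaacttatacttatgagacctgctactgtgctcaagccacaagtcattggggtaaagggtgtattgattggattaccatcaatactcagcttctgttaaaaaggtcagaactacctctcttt
Slc16a1 (chr3:104638414-104638663, plus strand): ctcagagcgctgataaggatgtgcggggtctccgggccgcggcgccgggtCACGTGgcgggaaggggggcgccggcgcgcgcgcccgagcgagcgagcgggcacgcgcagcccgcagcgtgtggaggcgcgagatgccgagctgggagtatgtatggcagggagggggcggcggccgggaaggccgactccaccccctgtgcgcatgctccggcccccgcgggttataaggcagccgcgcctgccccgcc
The motifs reported here, each searched on both strands, were the HNF4 site CAAAGTCCA, the E-box CACGTG, as bound by MYC and the glucose sensor ChREBP, and the core of hypoxia response elements, ACGTG, which the E-box contains. The E-box lay 143 to 138 bases before the Slc5a1 start and 200 to 195 bases before the Slc16a1 start, and 6.02% of 32851 promoter windows of the same length held it. The hypoxia core, outside an E-box, lay 36 to 32 bases before the RefSeq start of Slc2a1, and 16.6% of the windows held that core. The HNF4 site (0.384% of windows) was in none of the 5 windows, and no motif named here was in those of Slc5a8 and Slc2a2. This says only that these letters are not in these windows. Base composition differed: G and C made up 76.4% of the Slc16a1 window, 66.4% of that of Slc2a1, 60.0% and 58.8% of those of Slc5a1 and Slc5a8, and 47.2% of that of Slc2a2.

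In WT mice, 4 of the 7 genes passed the test after IRI. SGLT2 fell to about 0.518 times its sham mean, SMCT2 to 0.355 times and SMCT1 to 0.445 times, whereas GLUT1 rose to 1.90 times. In CKO mice 2 genes passed: SGLT2 fell to 0.478 times and MCT1 rose to 4.06 times. For WT the called share among all 12469 tested genes was 25.1% higher and 11.9% lower (37.0% in all), and for CKO it was 5.70% higher and 1.48% lower (7.19% in all). The 4 of 7 called members in WT thus stand beside a background of 37.0%, and the 2 of 7 in CKO beside 7.19%. The background split depended on scaling: 3125 genes were called higher and 1483 lower in WT as deposited, 2200 and 2276 after trimmed-mean scaling, and 2205 and 2172 after quantile normalization, with the median of all genes at 0.12, -0.017 and -0.024 on the log2 scale. In CKO the split was 711 higher and 185 lower as deposited, 557 and 259 after trimmed-mean scaling and 514 and 296 after quantile normalization. Under both scalings the 4 WT calls and the 2 CKO calls kept their directions. Fold changes are ratios of mean FPKM. Each log2 change is a difference of log2(FPKM + 1), where the added 1 makes the change of a low gene look smaller. Here and for every member below, fewer cells of a type and less RNA per cell cannot be told apart in cortex RNA.

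**Figure D1:**
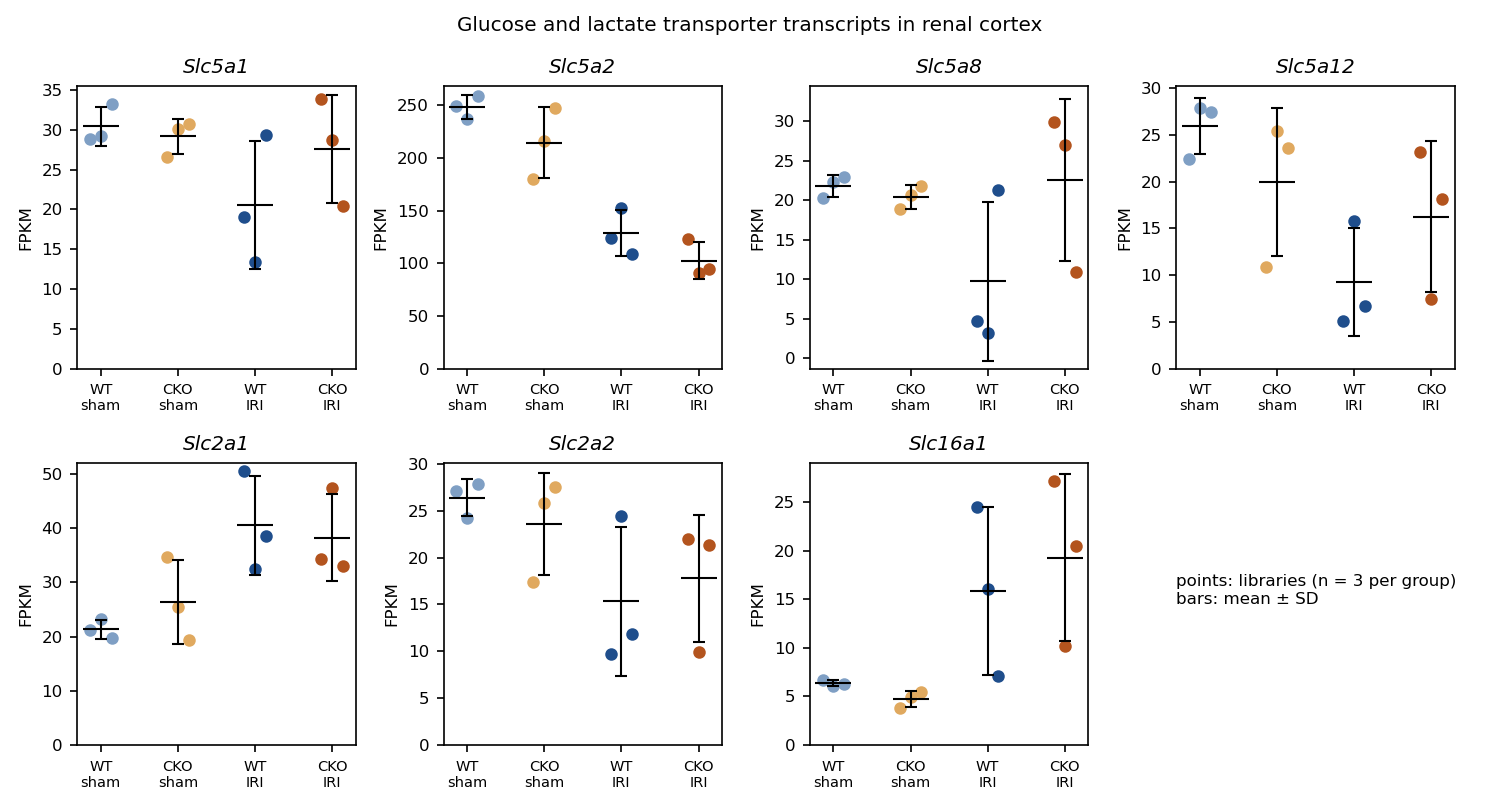
Level of each of the 7 transporter genes (FPKM, linear axis) in the 12 libraries, by group; points are libraries and bars give the mean and SD of 3 libraries. Slc5a2 lay between 90.4 and 152 FPKM in the 6 IRI libraries and between 180.3 and 259 in the 6 sham libraries, while Slc5a8 in WT IRI ran from 3.21 to 21.2 and its SD bar passes below 0.

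Slc5a2 (SGLT2) had the highest level per length of the 7 genes in each of the 12 libraries and, like Slc16a1, separated the IRI from the sham libraries in both genotypes. It was at 249, 237 and 259 FPKM in WT sham and at 180.3, 216 and 247 in CKO sham. After IRI it was at 124, 152 and 109 FPKM in WT and at 123, 90.4 and 94.2 in CKO. Every IRI library lay below every sham library. The log2 change was -0.96 in WT (SE 0.17, limma adjusted p = 0.00209) and -1.06 in CKO (SE 0.17, adjusted p = 0.00376). Both calls held without any 1 of the 12 libraries (adjusted p 0.00204 to 0.0113 in WT and 0.00318 to 0.0224 in CKO).

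Slc5a2 was listed with 5 transcripts. Slc5a2-202 (2277 bases) carried 216 FPKM of the 248.3 in WT sham. Slc5a2-211 (1148 bases) was listed at 32.8 and 26.9 FPKM in WT sham 2 and 3, at 20.2 and 35.8 FPKM in WT IRI 13 and 24, and at 0 in WT sham 1, WT IRI 49 and all 6 CKO libraries. Reads of such overlapping transcripts are divided by estimation, so the listed 0 may be a failed estimate. With only the strongest transcript of each gene, Slc5a2 changed by -1.02 in WT (adjusted p = 0.00113) and by -1.06 in CKO (adjusted p = 0.00179). The genotype difference of Slc5a2 moved more: CKO minus WT was -0.22 in sham and -0.32 after IRI with all transcripts, but -0.095 and -0.14 with 1 transcript.

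Slc5a1 (SGLT1), the late-segment cotransporter, had a lower level per length than Slc5a2 in every library. It was at 28.9, 29.2 and 33.3 FPKM in WT sham and at 26.6, 30.2 and 30.8 in CKO sham. WT IRI libraries 13, 24 and 49 had 19.0, 13.4 and 29.3 FPKM, and CKO IRI libraries 7, 15 and 29 had 33.9, 28.7 and 20.4. WT IRI 49 was within the range of WT sham and WT IRI 13 and 24 were below it. In CKO only library 29 lay below the sham range. The log2 change was -0.61 in WT (SE 0.25, limma adjusted p = 0.0764) and -0.10 in CKO (SE 0.25, adjusted p = 0.843), and neither passed. The WT value passed without WT IRI 49 (-0.89, adjusted p = 0.00777), with library weights (-0.83, adjusted p = 0.00746) and with trimmed-mean scaling (-0.77, adjusted p = 0.0365), and it was -0.35 (adjusted p = 0.258) without WT IRI 24.

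The ratio of SGLT2 to SGLT1 is independent of how a library is scaled. Its sham values were 8.61, 8.10 and 7.80 for WT and 6.78, 7.18 and 8.03 for CKO. Its IRI values were 6.55, 11.3 and 3.72 for WT and 3.63, 3.15 and 4.61 for CKO. The 3 CKO IRI libraries were below all CKO sham libraries (log2 difference, with 1 added to both values, -0.96, exact 2-sided permutation p = 0.1), which is the smallest p that 3 against 3 libraries allow. WT IRI straddled WT sham (difference -0.35, exact p = 0.7), and the difference was 0.041 without WT IRI 49. After IRI the genotypes differed by -0.77 (CKO minus WT, exact p = 0.2), and WT IRI 49 lay beside the CKO libraries. That difference was -1.16 without WT IRI 49 (exact p = 0.1, no overlap) and -0.39 without WT IRI 24 (exact p = 0.4). With 1 transcript per gene it was -0.59 (exact p = 0.2). In sham the genotypes differed by -0.16 with all transcripts and by -0.034 with 1 transcript per gene.

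**Figure D2:**
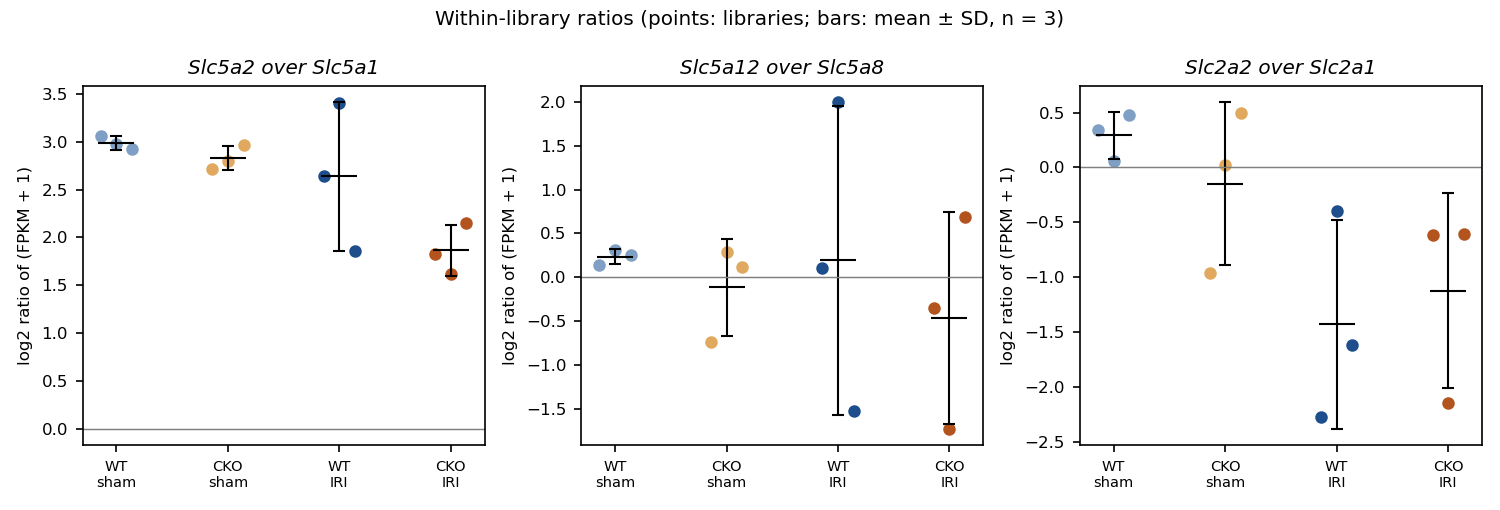
Log2 ratio of (FPKM + 1) values within each library for Slc5a2 to Slc5a1, Slc5a12 to Slc5a8 and Slc2a2 to Slc2a1, by group; points are libraries and bars give the mean and SD of 3 libraries. The log2 ratio of Slc5a2 to Slc5a1 lay between 1.62 and 2.15 in CKO IRI and between 2.72 and 3.06 in the 6 sham libraries.

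Slc5a8 (SMCT1), the high-affinity lactate carrier, had the widest spread of the 7 genes among the WT IRI libraries on the log2 scale. In WT sham it was at 20.3, 22.3 and 22.9 FPKM and in CKO sham at 18.8, 20.6 and 21.8. In WT IRI libraries 13, 24 and 49 it was at 4.64, 3.21 and 21.2 FPKM, and in CKO IRI libraries 7, 15 and 29 at 29.9, 26.9 and 10.9. WT IRI 13 and 24 stood apart from WT IRI 49, which was at the sham level, and CKO IRI 7 and 15 were above every sham library. The WT log2 change of -1.50 (SE 0.53, limma adjusted p = 0.0477) only just passed. It did not pass without any 1 of 10 of the 12 libraries (adjusted p 0.0543 to 0.163; the exceptions are WT IRI 49 and CKO IRI 29), with 1 transcript per gene (0.0661) or with only the WT groups fitted (0.0975). Without WT IRI 49 it was -2.23 (adjusted p = 0.000885) and without WT IRI 24 it was -1.02 (0.163). In CKO the log2 change was 0.024 (SE 0.53, adjusted p = 0.985).

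Slc5a12 (SMCT2), the low-affinity lactate carrier, fell in WT with no overlap. It was at 22.5, 27.9 and 27.4 FPKM in WT sham and at 10.8, 25.4 and 23.6 in CKO sham. It was at 5.06, 15.8 and 6.74 FPKM in WT IRI and at 23.2, 7.43 and 18.1 in CKO IRI. CKO sham 1 was the lowest sham library by far, and CKO IRI 7 reached the level of the other sham libraries. The log2 change was -1.54 in WT (SE 0.46, limma adjusted p = 0.0244) and -0.33 in CKO (SE 0.46, adjusted p = 0.705). The WT call was lost without WT sham 2 (0.0697), WT sham 3 (0.0686), WT IRI 13 (0.0940) or WT IRI 49 (0.0568), and with 1 transcript per gene (0.0661). The CKO value was -0.70 without CKO sham 1 and 0.12 without CKO IRI 15.

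The ratio of SMCT2 to SMCT1 was 1.11, 1.25 and 1.20 in WT sham and 0.576, 1.24 and 1.08 in CKO sham. It was 1.09, 4.92 and 0.317 in WT IRI and 0.777, 0.276 and 1.67 in CKO IRI. The IRI libraries thus spread from 0.276 to 4.92, far beyond the sham libraries, and no pair of groups differed by more than that spread (exact 2-sided permutation p = 0.9 in WT, 0.7 in CKO, 0.4 between genotypes in sham and 0.6 after IRI).

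Slc2a2 (GLUT2), the basolateral exit carrier of the early segments, was at 27.1, 24.2 and 27.9 FPKM in WT sham and at 17.3, 25.8 and 27.5 in CKO sham. In WT IRI it was at 9.69, 24.4 and 11.9 FPKM, and in CKO IRI at 22.0, 9.93 and 21.3. WT IRI 24 lay within the WT sham range and the other WT IRI libraries far below it. The log2 change was -0.85 in WT (SE 0.35, limma adjusted p = 0.0785) and -0.44 in CKO (SE 0.35, adjusted p = 0.479), so neither passed. The WT value passed without WT IRI 24 (-1.22, adjusted p = 0.0181), without CKO IRI 15 (0.0433) and with trimmed-mean scaling (-1.01, adjusted p = 0.0412).

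Slc2a1 (GLUT1) was the glucose carrier that rose in WT. It was at 21.2, 23.2 and 19.7 FPKM in WT sham and at 34.6, 25.4 and 19.3 in CKO sham. After IRI it was at 50.5, 32.5 and 38.6 FPKM in WT and at 34.3, 47.5 and 33.0 in CKO. All WT IRI libraries lay above all WT sham libraries, while CKO sham 1 lay among the CKO IRI libraries. The log2 change was 0.87 in WT (SE 0.23, limma adjusted p = 0.0129) and 0.54 in CKO (SE 0.23, adjusted p = 0.176). The WT call held without any 1 library (adjusted p 0.00788 to 0.0496), and the CKO value passed with library weights (0.61, adjusted p = 0.0209). Endothelial cells also carry GLUT1. The 7 endothelial markers summed to 182 to 197 FPKM in WT sham and 67.9 to 142 in WT IRI. Among the WT IRI libraries, number 24 had the lowest endothelial sum and the lowest Slc2a1. The part of endothelial cells in the Slc2a1 change was not tested. In CKO sham 1, the sham library with the most Slc2a1, the endothelial markers (286 FPKM) and the blood markers (725 FPKM) were at the top of the 12 libraries, and their part in that value was not tested either.

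The ratio of GLUT2 to GLUT1 was 1.28, 1.04 and 1.42 in WT sham and 0.192, 0.751 and 0.308 in WT IRI, with no overlap (log2 difference -1.72, exact 2-sided permutation p = 0.1, the smallest possible). It was 0.501, 1.02 and 1.43 in CKO sham and 0.642, 0.209 and 0.647 in CKO IRI, where the groups overlapped (-0.98, exact p = 0.3). The CKO difference was -1.38 without CKO sham 1 (exact p = 0.1), -0.66 without CKO sham 3 (exact p = 0.6) and -0.46 without CKO IRI 15 (exact p = 0.4).

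Slc16a1 (MCT1), the proton-coupled carrier, was the least abundant member in every sham library and rose after IRI in CKO. It was at 6.68, 6.10 and 6.24 FPKM in WT sham and at 3.83, 4.98 and 5.43 in CKO sham. In WT IRI libraries 13, 24 and 49 it was at 24.5, 16.0 and 7.14 FPKM, and in CKO IRI libraries 7, 15 and 29 at 27.2, 10.2 and 20.5. Each IRI library was above every sham library, WT IRI 49 by a small margin. The log2 change was 1.73 in CKO (SE 0.40, limma adjusted p = 0.0273) and 1.05 in WT (SE 0.40, adjusted p = 0.0592). The CKO call was lost without CKO sham 1 (0.0783), 2 (0.0818) or 3 (0.0720), or without CKO IRI 7 (0.101) or 29 (0.0933). The WT value passed without WT IRI 49 (1.50, adjusted p = 0.00596), without CKO IRI 15 (0.0353) and with library weights (0.0141), and it was 0.68 (adjusted p = 0.213) without WT IRI 13.

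**Figure D3:**
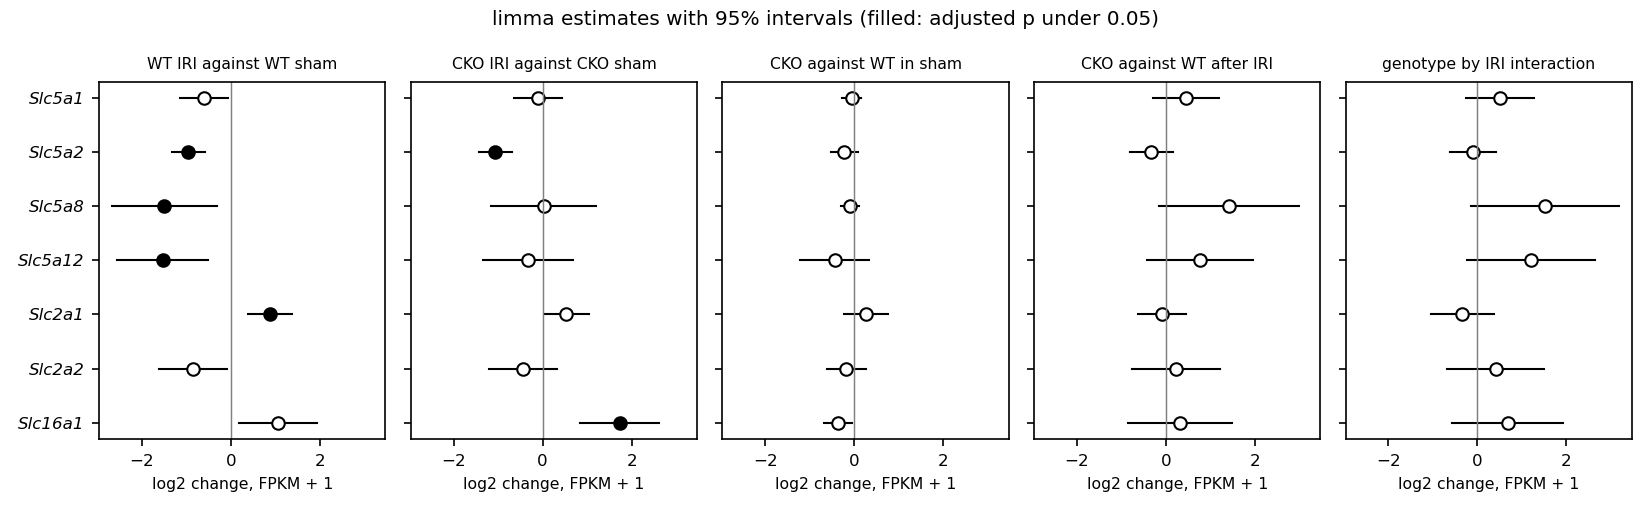
Log2 change of each member, log2(FPKM + 1) scale, with 95% intervals, for the 5 contrasts; filled points passed the limma test over all tested genes. Slc5a2 passed in both IRI contrasts, at -0.96 in WT and -1.06 in CKO, and no member passed in the genotype contrasts or the interaction.

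By complete separation of the libraries, 2 members lay higher (Slc2a1 and Slc16a1) and 2 lower (Slc5a2 and Slc5a12) in WT IRI, against 35.2% and 19.5% of all tested genes. In CKO, Slc16a1 lay higher and Slc5a2 lower without overlap, against 21.4% and 10.1%. In the order of group means, Slc5a2 ran from WT sham (248.3 ± 11.4 FPKM, SD, n = 3) through CKO sham (215 ± 33.5) to WT IRI (129 ± 22.0) and CKO IRI (103 ± 17.8), and the only neighbours in that order without overlap were CKO sham and WT IRI. For Slc16a1 the order was CKO IRI (19.3 ± 8.58), WT IRI (15.9 ± 8.67), WT sham (6.34 ± 0.304) and CKO sham (4.75 ± 0.828), and only the IRI groups overlapped with each other. For the other members, all neighbouring groups in the order of the means overlapped.

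The IRI libraries did not lose the same carriers. Slc5a1 and Slc5a8 were lowest in WT IRI 24, then WT IRI 13, then CKO IRI 29, whereas Slc5a12 and Slc2a2 were lowest in WT IRI 13, WT IRI 49 and CKO IRI 15 (in this order for Slc5a12; CKO IRI 15 before WT IRI 49 for Slc2a2). Markers of the segments varied too. The sum of 7 S3 markers was 171, 144 and 434 FPKM in WT IRI 13, 24 and 49 and 458, 825 and 251 FPKM in CKO IRI 7, 15 and 29, against 949 to 1257 in sham, so its lowest 3 libraries were those of Slc5a1 and Slc5a8. This order was not particular to S3. WT IRI 13, WT IRI 24 and CKO IRI 29 also had the lowest sums of the 10 markers of all proximal tubule segments (1590, 2119 and 2695 FPKM). The same held for the 7 markers of thick ascending limb, distal tubule and collecting duct (1405, 1566 and 1136). Their tubular injury sums were the highest (5748, 6072 and 6655). The sum of 7 S1 and S2 markers was 245, 308 and 443 FPKM in WT IRI and 489, 398 and 534 in CKO IRI, against 578.5 to 924 in sham. This sum was lowest in WT IRI 13 and then WT IRI 24, whereas Slc2a2 in WT IRI 24 (24.4 FPKM) was the highest of the IRI libraries. Slc6a19, of the S1 and S2 list, was at 0.238 to 0.776 FPKM in sham and was not tested. Slc7a13, of the S3 list, was at 0.350 to 0.838 FPKM in sham and reached 11.3, 11.4 and 9.69 FPKM in WT IRI 49, CKO IRI 7 and CKO IRI 15, unlike the sum of its list. The part of segment makeup in the member values was not tested.

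**Figure D4:**
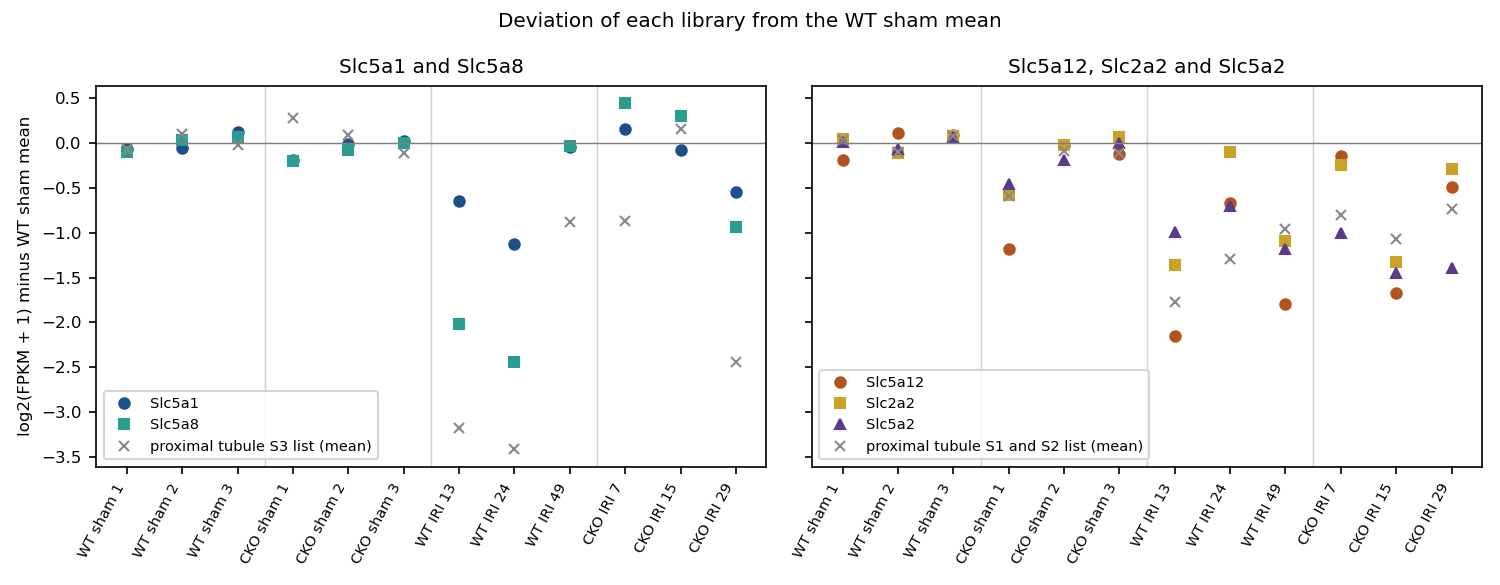
Deviation of each library from the WT sham mean (log2(FPKM + 1)) for Slc5a1 and Slc5a8 with the mean of the S3 markers (left), and for Slc5a12, Slc2a2 and Slc5a2 with the mean of the S1 and S2 markers (right). Slc5a8 was at -2.02 and -2.44 in WT IRI 13 and 24 but at -0.034 in WT IRI 49, where Slc5a12 was at -1.79.

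Transcript length also differed with these libraries. Deviations were taken from the mean of the WT sham libraries, whose own values are therefore held near 0. The measure was the median deviation of the long transcripts (at least 3608 bases) minus that of the short ones (at most 1451 bases), from 9186 transcripts. Apart from the libraries named next, it lay between -0.199 and 0.0427 on the log2 scale. It was -0.505 in WT IRI 13, -0.448 in CKO sham 1 and -0.327 in CKO IRI 15. It was -0.279 in WT IRI 49 and -0.249 in WT IRI 24. Of these, WT IRI 13, CKO sham 1, CKO IRI 15 and WT IRI 49 held low Slc5a12 and Slc2a2, and WT IRI 24 held Slc2a2 at the sham level. The main transcripts of these are 3518 and 5569 bases long, with 42.5% and 41.7% GC, against 2277 bases and 56.0% GC for Slc5a2. Slc5a8, at 5331 bases and 40.5% GC, was at the sham level or above it in WT IRI 49 and CKO IRI 15. Slc16a1, at 4426 bases and 42.9% GC, was above every sham library in each IRI library, with 24.5 FPKM in WT IRI 13. The same measure for base composition, transcripts of at least 55.6% GC minus those of at most 46.6%, was 0.533, 0.214 and 0.193 in WT IRI 13, 24 and 49. It lay between -0.0708 and 0.0833 in the CKO libraries, and between -0.0318 and 0.0358 in the WT sham libraries that form the reference. In WT IRI, Slc5a8, Slc5a12 and Slc5a2 were called lower, and Slc2a1 (54.0% GC in its main transcript) was called higher. In CKO IRI, where the measure was -0.0708, 0.005 and -0.0504, Slc5a2 was called lower (-1.06) and Slc16a1 higher (1.73). The part of length and base composition in the member values was not tested.

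No member passed in CKO against WT, either in sham (background 0.0882% called) or after IRI (0.00% called, although 1302 genes had an unadjusted limma p under 0.05). In sham, 1 member had an unadjusted p under 0.05: Slc16a1 was lower in all 3 CKO libraries (log2 difference -0.36, 95% interval -0.68 to -0.046, limma adjusted p = 0.281), where 13.4% of all genes lay lower without overlap. After IRI no member had an unadjusted p under 0.05, and in all 7 the genotypes overlapped, as they did not in 18.6% of all genes. The widest interval was that of Slc5a8 (CKO minus WT 1.43, 95% interval -0.15 to 3.00, adjusted p = 0.479; 2.16 without WT IRI 49), followed by Slc5a12 (0.77, interval -0.42 to 1.96). Slc5a2 differed by -0.32 (interval -0.80 to 0.15). The intervals of these members do not show that the genotypes were alike.

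The change with IRI was compared between genotypes by the interaction, in which no member passed (background 0.0160% called). Slc5a8 had the largest interaction (1.52, SE 0.75, unadjusted p = 0.0694, limma adjusted p = 0.309), with a change of -1.50 in WT and 0.024 in CKO. It passed without WT IRI 49 (2.25, adjusted p = 0.0369) and with library weights (2.22, adjusted p = 0.0345). In the 20 other alternatives it did not pass, among them 1.05 (adjusted p = 0.424) without WT IRI 24 and 2.2 (adjusted p = 0.0703) without CKO sham 1 and WT IRI 49. Both fits in which it passed also called far more of all genes than the main fit (310 higher and 269 lower without WT IRI 49). Slc5a12 had the next largest interaction (1.21, SE 0.65, adjusted p = 0.339). Slc5a2 had -0.10 (SE 0.24, interval -0.63 to 0.42), and Slc16a1, called in CKO only, had 0.68 (SE 0.56, adjusted p = 0.521). The difference between being called in 1 genotype and not in the other was therefore not itself past the threshold for any member.

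Other members of the carrier families fell in WT more often than they rose. Of 10 other GLUT genes 6 were in the table and tested, and 3 fell: the fructose carrier Slc2a5 (-2.28, limma adjusted p = 0.00548), Slc2a12 (-1.45, 0.000615) and the urate carrier Slc2a9 (-0.79, 0.0239). Of 9 other SLC5 genes 5 were in the table and tested, and 4 fell: the vitamin carrier Slc5a6 (-2.59, 0.00217), the mannose and fructose carrier Slc5a10 (-2.07, 0.00172), Slc5a9 (-1.43, 0.00914) and the inositol carrier Slc5a11 (-0.97, 0.00894). Of 13 other SLC16 genes 12 were in the table and 11 tested, and 7 fell, among them Slc16a4 (-3.21, 0.000495), Slc16a14 (-2.42, 0.00203) and Slc16a13 (-0.98, 0.00219). No gene of the 3 lists was called higher in WT, although the highest uncalled changes were 0.52 among the SLC5 and 0.26 among the SLC16 genes. In the values as deposited, 25.1% of all tested genes were called higher in WT and 11.9% lower. In CKO none of the 3 lists was called in either direction, beside a background of 7.19%. The median log2 change of the 3 lists was -0.82, -1.43 and -1.30 in WT, against 0.12 over all genes, and -0.29, -0.68 and -0.100 in CKO, against 0.079. The 10 proximal tubule markers, of which 9 fell in WT and none passed in CKO, had medians of -1.63 and -0.65. Their part in the family values was not tested.

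**Figure D5:**
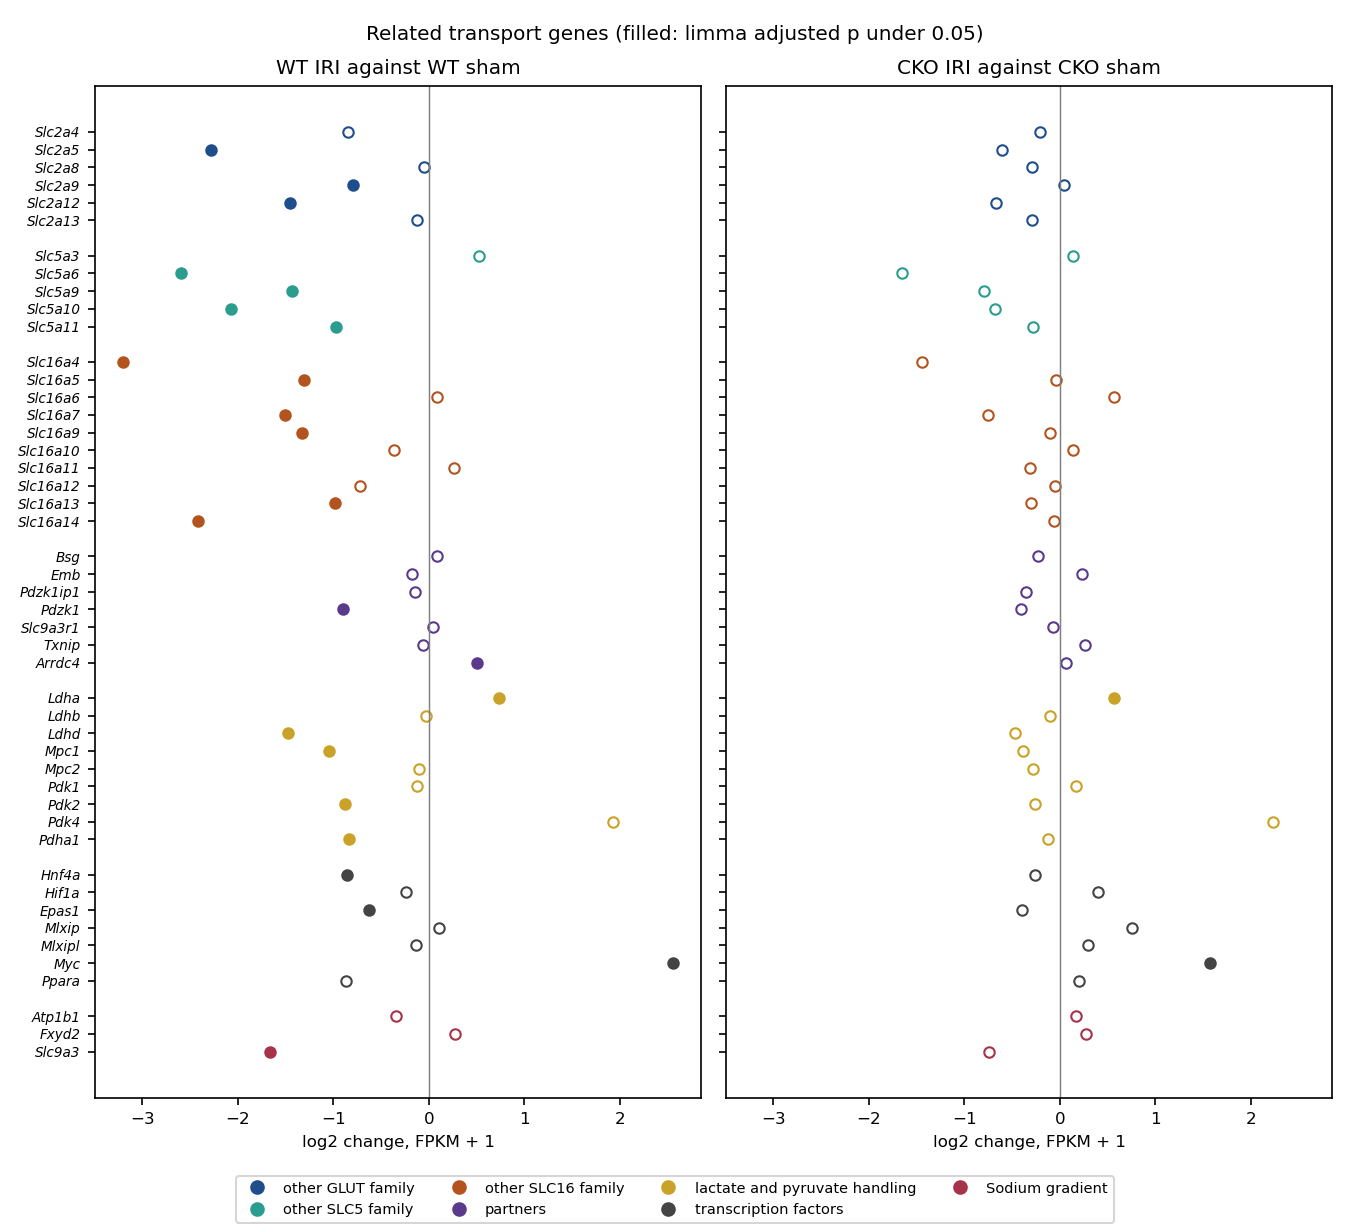
Log2 change after IRI of the tested related genes reported here, by list, in WT (left) and CKO (right), log2(FPKM + 1) scale; filled points passed the limma test over all tested genes. Slc16a4 at -3.21 and Slc5a6 at -2.59 were the lowest of the WT values, and Ldha and Myc were the only filled points in CKO.

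Of 7 genes for proteins that act with these carriers, 2 were called in WT, where 37.0% of all tested genes were, and 0 in CKO, against 7.19%. In WT 1 rose (Arrdc4, an arrestin that removes glucose carriers from the surface, 0.51, limma adjusted p = 0.0491) and 1 fell (the brush-border scaffold Pdzk1, -0.90, 0.00437). The SGLT2 accessory subunit Pdzk1ip1 (MAP17) had -0.15 in WT and -0.36 in CKO, the MCT1 chaperone basigin (Bsg) 0.086 and -0.23, and Txnip, which restrains GLUT1, -0.064 and 0.27, none of them called. Of 4 genes of the sodium gradient, 2 fell in WT, among them the exchanger Slc9a3 (-1.66, 0.00348), and none was called in CKO.

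Of 9 tested genes of lactate and pyruvate handling, Ldha, the lactate dehydrogenase subunit of glycolytic tissue, rose in both genotypes (0.74, limma adjusted p = 0.000939 in WT; 0.56, 0.0122 in CKO). The highest log2 changes in this list, 1.93 in WT and 2.23 in CKO, were larger than those of Ldha but were not called. Pdha1 (-0.84, 0.00161), the mitochondrial pyruvate carrier Mpc1 (-1.05, 0.00619), Pdk2 (-0.87, 0.0115) and the D-lactate dehydrogenase Ldhd (-1.48, 0.0211) fell in WT. In the list of 9 transcription factors, Myc rose (2.56, 0.00120 in WT; 1.57, 0.0413 in CKO). In WT 4 of the 9 fell, among them the proximal tubule factor Hnf4a (-0.86, 0.00520) and the hypoxia-inducible factor Epas1 (-0.63, 0.0113). Hnf4a had -0.27 in CKO, where it was not called. No gene of these lists was called between genotypes or in the interaction. The 8 tubular injury markers all rose in WT and 6 of them in CKO. Beside the counts of this paragraph, 25.1% of all tested genes were called higher and 11.9% lower in WT. In CKO these shares were 5.70% and 1.48%.

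Across the 12 libraries, the genes whose log2 levels ran most like each member were found by Pearson's r, which is a description here, since the 12 points include the 4 groups and share library makeup. Slc5a1 was closest to the dicarboxylate carrier Slc13a2 (0.959), to Slc5a8 (0.959) and to Map3k7cl (0.952). Slc5a8 was closest to Serpina1f (0.973), Acy1 (0.969) and Ggcx (0.967). Slc5a12 was closest to Tiparp (0.965), Slc2a2 (0.952) and the endocytic adaptor Dab2 (0.952), and Slc2a2 in turn to Slc5a12, Tiparp (0.933) and the chloride transporter Clcn3 (0.909). Slc5a1 thus had Slc5a8, and Slc2a2 had Slc5a12, among its 3 closest genes. Slc5a2 was closest to Itpr2 (0.936), Baat (0.933) and Scamp5 (0.931), but within the 6 IRI libraries alone these were 0.328, 0.599 and 0.522. Slc2a1 was closest to the sodium pump subunit Atp1b3 (0.984), then Frzb (0.948). Slc16a1 was closest to the adaptor Gab2 (0.967), fibrinogen alpha (Fga, 0.961) and H6pd (0.947).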

How the data were processed

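RNA was measured in 12 libraries of mouse renal cortex, 3 in each of 4 groups, with groups taken from the genotype and treatment labels. Reads were trimmed with cutadapt, aligned with HISAT2 2.1.0 and quantified with StringTie, per the submitters' processing notes, which name the human build GRCh38. The identifiers are those of mouse transcripts, and 25740 of 25790 matched GENCODE M21; the 50 others made up at most 0.103% of a library and were left out. The authors deposited one value per transcript and library, read here as FPKM because StringTie reports it and the library sums differ; the header names no unit. In the table every transcript has a group mean of at least 0.5 in its highest group. Depth is unknown, so no counting intervals are given.

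Transcripts were summed per gene and log2(FPKM + 1) was fitted with limma 3.58.1 (R 4.3.3) with a mean-variance trend. The 12469 genes with at least 1 FPKM in 3 libraries were tested, 2-sided, with Benjamini-Hochberg adjustment over all of them and a threshold of 0.05. IRI against sham and the interaction used all 4 groups with a shared spread; genotype contrasts used only the 2 groups compared. Ratios were compared with exact 2-sided permutation tests. The fit was first run on simulated data, where the only requirement was that known changes that were called had the right sign. That run set no limit on missed or false calls. Other pseudocounts, filters, scalings, library weights, 1 transcript per gene, other groups in the fit and leaving out each library were tried. Scaling every library to the same sum, and leaving out CKO sham 1 with WT IRI 49, were chosen after seeing the data. The named genes are the 7 members, Gpx3, up to 4 called genes of smallest p in each list, Pdzk1ip1, Bsg, Txnip and Hnf4a, and the 3 genes most like each member; some items under this rule are not reported here. The members and lists were chosen with earlier results of these data known. Python 3.11.15, pandas 2.3.3, numpy 2.4.6 and matplotlib 3.10.9 were used.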

Additional observations from a re-analysis of the deposited data

How the results depend on the processing

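The counts of called members moved with the libraries and weights. In WT after IRI, 1 member was called higher and 3 lower; the higher count was 2 with library weights and 2 without CKO sham 1 and WT IRI 49, and the lower count was 5 with trimmed-mean scaling and 1 with 1 transcript per gene. Leaving out each library in turn gave 1 to 2 higher and 1 to 3 lower in WT, and 0 to 1 higher in CKO (2 with library weights). In the interaction 1 member was called with library weights and 0 to 1 on leaving out each library. In the genotype contrasts no alternative called a member.

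Signs that turned belong to values near 0 or to uncalled differences. For CKO after IRI, Slc5a1 was 0.063 with library weights and -0.26 to 0.095 over the libraries left out, and Slc5a8 was -0.056 with quantile and -0.064 with trimmed-mean scaling, -0.23 to 0.46 over the libraries, and -0.030 without CKO sham 1 and WT IRI 49. Slc5a12 ran from -0.70 to 0.12 and Gpx3 from -0.013 to 0.20, with -0.0063 for Gpx3 without that pair of libraries. Between genotypes in sham, Slc5a1 ran from -0.10 to 0.0025 and Slc2a2 from -0.30 to 0.018, with 0.0025 and 0.018 without that pair. After IRI, CKO minus WT ran from -0.24 to 0.090 for Slc2a1, -0.024 to 0.60 for Slc2a2, -0.14 to 0.69 for Slc16a1 and -0.0012 to 0.86 for Gpx3, with -0.14 and -0.0012 for the last 2 without the pair. The Slc5a2 interaction ran from -0.24 to 0.024. The Slc5a2 to Slc5a1 ratio in WT ran from -0.73 to 0.041. For Slc5a12 to Slc5a8 it was 0.0046 with a pseudocount of 0.1, 0.092 with 1 transcript per gene and -0.94 to 0.82 over the libraries in WT, -0.93 to 0.28 in CKO and -1.51 to 0.24 between genotypes after IRI. Slc2a2 to Slc2a1 between genotypes after IRI ran from -0.11 to 0.82. The cause was not tested.

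Counts over all genes moved by more than 1.5 times in several fits. CKO after IRI had 2275 higher and 1276 lower with library weights and 373 and 103 with only the 2 groups, against 711 and 185. The interaction had 347 and 494 with weights and 310 and 269 without WT IRI 49, against 1 and 1. CKO against WT in sham had 7 and 4, 0 and 0 with a shared spread, and 14 and 16 with 1 transcript per gene; after IRI it had 0 and 0, 3 and 2 with a shared spread, 4 and 3 with weights, and 11 and 5 with 1 transcript. Sham libraries share numbers only: deviations of same-numbered libraries correlated at 0.00355, -0.0314 and -0.00247, and with the replicate block 0 members and 0 genes were called.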
